A study of Mus musculus with 4 samples.

Results

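The cells described here were the stromal cells of the mouse thymus in which Sox10 or S100b RNA was counted together with podoplanin (Pdpn) RNA, while the epithelial gene Epcam was not seen. A cell was a member if it held at least 1 unique molecular identifier (UMI, a tag that marks 1 captured RNA molecule) of Sox10 or S100b, at least 1 UMI of Pdpn, and 0 UMIs of Epcam, of the fibroblast gene Pdgfra, of the endothelial gene Pecam1 and of the leukocyte gene Ptprc. Only cells in which over 1000 genes were seen, and in which mitochondrial genes gave under 20% of UMIs, were considered. Of 10245 such cells, 73 were members, of which library Z/Z 1 gave 57 and library Z/Z 2 gave 16, while both WT libraries (WT 1 and WT 2) gave 0.

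Droplet-based single-cell RNA-seq had been performed on untreated thymi of 6-month-old C57BL/6 mice, depleted of CD45+ cells with magnetic beads and then sorted for CD45- cells. The Z/Z group was homozygous for Foxn1 LacZ, a hypomorphic allele of the transcription factor that directs thymic epithelial development, and the WT group carried the wild-type gene. Each group had 2 libraries, each made from thymi of several mice digested together, so the libraries are the replicates and the spread between them is that of pooled preparations. The protocol gives the mice as female and the characteristics as male, and what differs between separately prepared pools cannot be told apart from what differs between mice.

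As background, Sox10 is a transcription factor best known from the neural crest, where it directs the formation of Schwann cells, melanocytes and enteric neurons, and it is also made in the otic epithelium and in glandular and myoepithelial cells. S100b is a small calcium-binding protein used as a marker of glia, which cartilage and fat cells can also make. Pdpn is a membrane glycoprotein found on thymic fibroblasts and on some thymic epithelial cells. In the aging thymus the study described age-associated epithelial cells, named aaTEC1 and aaTEC2, of which the aaTEC2 type has lost Epcam and carries mesenchymal genes.

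In the GENCODE annotation of build GRCm38, which the mm10 files share, Sox10 lies at chr15:79154908-79165240 on the minus strand, S100b at chr10:76253853-76261159 on the plus strand and Pdpn at chr4:143267431-143299564 on the minus strand. The 250 bases before the RefSeq start site (GRCm38.p6) are printed for S100b and Pdpn, since these genes chose the cells, and for Chl1 and Cldn14, high in members of both libraries, and Otog, high in those of Z/Z 1, whose windows hold a match to the core of the motif bound by SOX proteins. Capitals mark ACAAAG or ACAATG on either strand, and each line runs 5′ to 3′ on the gene's own strand.
S100b, chr10:76253586-76253835, plus strand: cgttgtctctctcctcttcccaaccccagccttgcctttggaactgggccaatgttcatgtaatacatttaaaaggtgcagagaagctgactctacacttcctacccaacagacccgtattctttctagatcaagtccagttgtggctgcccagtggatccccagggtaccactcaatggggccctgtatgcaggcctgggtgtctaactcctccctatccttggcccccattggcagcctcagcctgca
Pdpn, chr4:143299565-143299814, minus strand: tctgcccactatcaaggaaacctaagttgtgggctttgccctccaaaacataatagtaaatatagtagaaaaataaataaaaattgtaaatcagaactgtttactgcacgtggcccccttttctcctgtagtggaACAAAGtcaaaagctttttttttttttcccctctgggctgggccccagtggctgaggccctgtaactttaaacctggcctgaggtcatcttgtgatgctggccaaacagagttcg
Chl1, chr6:103510626-103510875, plus strand: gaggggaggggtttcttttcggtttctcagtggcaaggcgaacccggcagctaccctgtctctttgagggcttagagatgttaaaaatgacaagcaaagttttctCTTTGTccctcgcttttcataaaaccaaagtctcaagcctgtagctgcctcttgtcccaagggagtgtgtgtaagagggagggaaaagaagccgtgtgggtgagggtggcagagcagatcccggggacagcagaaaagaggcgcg
Cldn14, chr16:94008838-94009087, minus strand: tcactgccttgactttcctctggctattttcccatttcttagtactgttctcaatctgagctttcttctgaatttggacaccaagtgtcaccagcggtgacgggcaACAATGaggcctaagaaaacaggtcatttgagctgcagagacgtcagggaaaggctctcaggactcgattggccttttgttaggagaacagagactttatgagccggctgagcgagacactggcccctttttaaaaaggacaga
Otog, chr7:46240737-46240986, plus strand: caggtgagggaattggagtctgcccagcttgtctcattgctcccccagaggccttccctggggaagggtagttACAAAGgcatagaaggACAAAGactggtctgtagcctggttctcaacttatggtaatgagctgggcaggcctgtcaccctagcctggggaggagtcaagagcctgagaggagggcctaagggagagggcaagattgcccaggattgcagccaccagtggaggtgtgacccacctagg
The S100b window held none of these letters. The Pdpn window held 1 match, the Chl1 and Cldn14 windows 1 each and the Otog window 2. Of 27025 genes with a promoter entry, 25.5% had a match in this window, against 2 of the 17 leading genes (defined below) with an entry, or 11.8%. The matches are descriptions of letters, and nothing on SOX10 binding was measured. Sox10, Erbb3, Edil3 and 4833423E24Rik had no entry.

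Members were seen in both Z/Z libraries and in neither WT library. They made up 1.23% of the cells of Z/Z 1 (exact binomial 95% interval 0.933% to 1.59%) and 0.442% of those of Z/Z 2 (0.253% to 0.717%). A count of 0, read as under 3 counts, allowed a share of up to 0.198% among the 1517 cells of WT 1 and up to 0.633% among the 474 cells of WT 2 (exact binomial upper ends 0.243% and 0.775%). The share of Z/Z 2 lies below both limits of WT 2. The mean share was 0.836% ± 0.557 (SD, n = 2) in Z/Z and 0% (n = 2) in WT, and the groups did not overlap. The exact two-sided permutation test over libraries gave p = 0.333, the smallest that 2 against 2 libraries can give. Without Z/Z 1 the difference was 0.442 percentage points. Intervals and limits cover counting error only.

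The WT cells were the deeper. Kept cells had median depths of 13123 (WT 1) and 11180 UMIs (WT 2), against 7578 for Z/Z 1 and 7372 for Z/Z 2. Members were about as deep as kept cells in Z/Z 1, at a median of 7623 UMIs (lowest 2910, highest 40321). In Z/Z 2 they were shallower, at a median of 5862 UMIs (2174 to 9859). Their median share of mitochondrial UMIs was 1.77% (Z/Z 1) and 3.01% (Z/Z 2), against 2.07% and 2.40% in kept cells. WT 1 and WT 2 shared 202 called barcodes, and Z/Z 1 and Z/Z 2 shared 249. One barcode of a Z/Z 1 member, 1 of 57, was also called in Z/Z 2, and no Z/Z 2 member shared a barcode.

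The gate around the members held few WT cells. Cells with Pdpn and none of the 4 lineage genes, with or without Sox10 or S100b, numbered 67 and 8 in the WT libraries, against 615 for Z/Z 1 and 276 for Z/Z 2. Within this gate, 9.27% (7.10% to 11.8%) of cells in Z/Z 1 and 5.80% (3.35% to 9.24%) in Z/Z 2 had a Sox10 or S100b UMI. The WT value was 0 of 67 and 0 of 8, with upper ends of the interval at 5.36% and 36.9%, and the interval of WT 1 overlaps that of Z/Z 2. The gate also held a different mix of cells in WT, with more RNA of fibroblast genes (levels at the end of the Results). The WT and Z/Z shares are therefore not shares of like cells.

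The same share was read in the other gates. Among Pecam1 cells with none of the other lineage genes, 0.921% in Z/Z 1 and 1.26% in Z/Z 2 had a Sox10 or S100b UMI, at median depths of 6041 and 5648 UMIs, and among Pdgfra cells the shares were 1.78% and 1.38%, at 10751 and 10725.5 UMIs. Among Epcam cells it was 10.5% in both. The share in the Pdpn gate was thus above that of the endothelial and fibroblast gates in both Z/Z libraries. After thinning each cell to 2000 UMIs the Pdpn gate gave 5.09% and 4.06%, the Pecam1 gate 0.803% and 0.962%, and the Epcam gate 2.88% and 2.92%, so the order of the Pdpn and Epcam gates turned with depth. In barcodes with at most 100 UMIs, Sox10 stood at 12.3 CPM (counts per 1000000 UMIs) in Z/Z 1 and 3.15 in Z/Z 2, against 220 and 183 CPM in members, and S100b stood at 3.17 and 10.1 CPM, against 240 and 183. The rule selected members for both genes, and the part of free RNA in single UMIs was not tested.

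**Figure D1:**
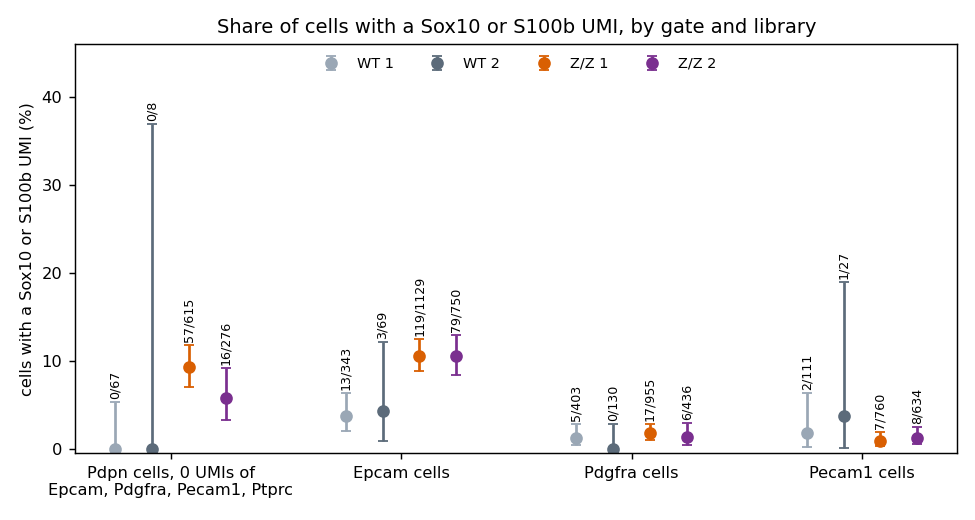
Percent of cells with a Sox10 or S100b UMI (y axis) in 4 gates (x axis), each free of the other lineage genes, for the 4 libraries. Points are shares, bars exact binomial 95% intervals, and the labels give cells with a UMI over cells in the gate. The Pdpn gate holds 57 of 615 and 16 of 276 such cells in the Z/Z libraries and none of 67 and 8 in WT.

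Sox10 and S100b were themselves counted in few molecules per cell, and these values are those the rule used. In Z/Z 1, Sox10 was seen in 49 members (lowest 0, median 2, highest 11 UMIs) and S100b in 30 (0, 1 and 14), with both in 22. In Z/Z 2, Sox10 was seen in 10 (0, 1 and 5 UMIs) and S100b in 11 (0, 1 and 4), with both in 5. Pdpn had a median of 9 UMIs in Z/Z 1 and 4 in Z/Z 2. Members at the edge of the rule, with exactly 1 Sox10 or S100b UMI, were 17 of 57 (29.8%) in Z/Z 1 and 9 of 16 (56.3%) in Z/Z 2.

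Just outside the rule, 12 cells in Z/Z 1 and 9 in Z/Z 2 met all conditions but had no Pdpn UMI. Cells kept out by Epcam alone were 103 in Z/Z 1 and 66 in Z/Z 2, of which 6 and 1 had a single Epcam UMI. Among cells with Pdpn and with Sox10 or S100b, more therefore carried Epcam than lacked it. Pdgfra alone kept out 13 and 5 cells, Pecam1 alone 2 and 4, and Ptprc alone 0 and 2.

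The genes that set members apart were then sought by comparison with the cells that passed the same gate and had no Sox10 or S100b UMI, 558 in Z/Z 1 and 260 in Z/Z 2, called Pdpn cells below. UMIs were summed over each set, scaled to CPM, and compared as (CPM + 10) ratios within a library. These ratios are descriptions with no test, since the cells were chosen by gene content and cells of 1 library are not replicates. Of 7047 genes compared, 224 (3.18%) were at least 2-fold higher in members in both libraries and 182 (2.58%) at least 2-fold lower. The median log2 ratio of all genes was 0.00 (Z/Z 1) and 0.06 (Z/Z 2). The 20 genes with the greatest smaller ratio of both libraries are called the leading genes.

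Ctnna2, Ncam2, Mt3, Ptprt and Luzp2 came first in this list, and its adhesion genes are described first. Ctnna2 (chr6:76881637-77979699), the neuronal alpha-catenin that ties cadherins to actin, stood at 970 CPM in members of Z/Z 1 and 569 in Z/Z 2, against 22.1 and 9.83 in Pdpn cells, a ratio of 30.6 and 29.2. It was seen in 33 of 57 and 5 of 16 members, and in Z/Z 2 a single cell held 27 of its 53 UMIs. Without the 3 highest cells of each library, Ctnna2 stood at 671 and 103 CPM. Ncam2, an adhesion molecule of the immunoglobulin family known from olfactory neurons, stood at 474 and 365 CPM against 12.9 and 10.4. Chl1, a relative of the adhesion molecule L1, stood at 963 and 741 CPM against 94.3 and 76.9. All 3 were thus more than 8-fold higher in both libraries. Ptprt, a receptor tyrosine phosphatase that mediates cell contact, had ratios of 26.0 and 15.6. Edil3, a secreted ligand of integrins, had ratios of 10.4 and 8.66.

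Luzp2 (chr7:54835498-55268885), a leucine zipper protein gene, stood at 733 CPM in Z/Z 1 and 387 in Z/Z 2 members against 18.4 and 16.2 in Pdpn cells. Mt3, a metallothionein known from brain, stood at 217 and 204 CPM against 3.94 and 2.31. Tmem117, a transmembrane protein gene, stood at 684 and 451 CPM against 36.2 and 16.2. These genes were seen in at most 4.62% of Pdpn cells, and Luzp2 was seen in 46 of 57 and 8 of 16 members. Otoa, whose protein anchors the gel over the inner ear's sensory epithelium, had a ratio of 9.16 in both libraries, and Cldn14, a claudin whose loss causes deafness, ratios of 15.5 and 8.66. In Z/Z 2 the Otoa UMIs lay in members with 10, 3 and 2 UMIs, and in no other member. Grb14 (an adaptor that inhibits insulin receptor signaling), Pdk4 (a kinase that inhibits pyruvate dehydrogenase), Abcb4 (a phospholipid transporter) and Cyp2j6 (a cytochrome P450) were 7.56- to 11.1-fold higher. Erbb3, the neuregulin receptor that Schwann cells need, stood at 94.7 and 64.4 CPM against 3.41 and 2.31. Plppr5, Hhatl, Paqr6, 4833423E24Rik and 0610040J01Rik completed the 20.

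**Figure D2:**
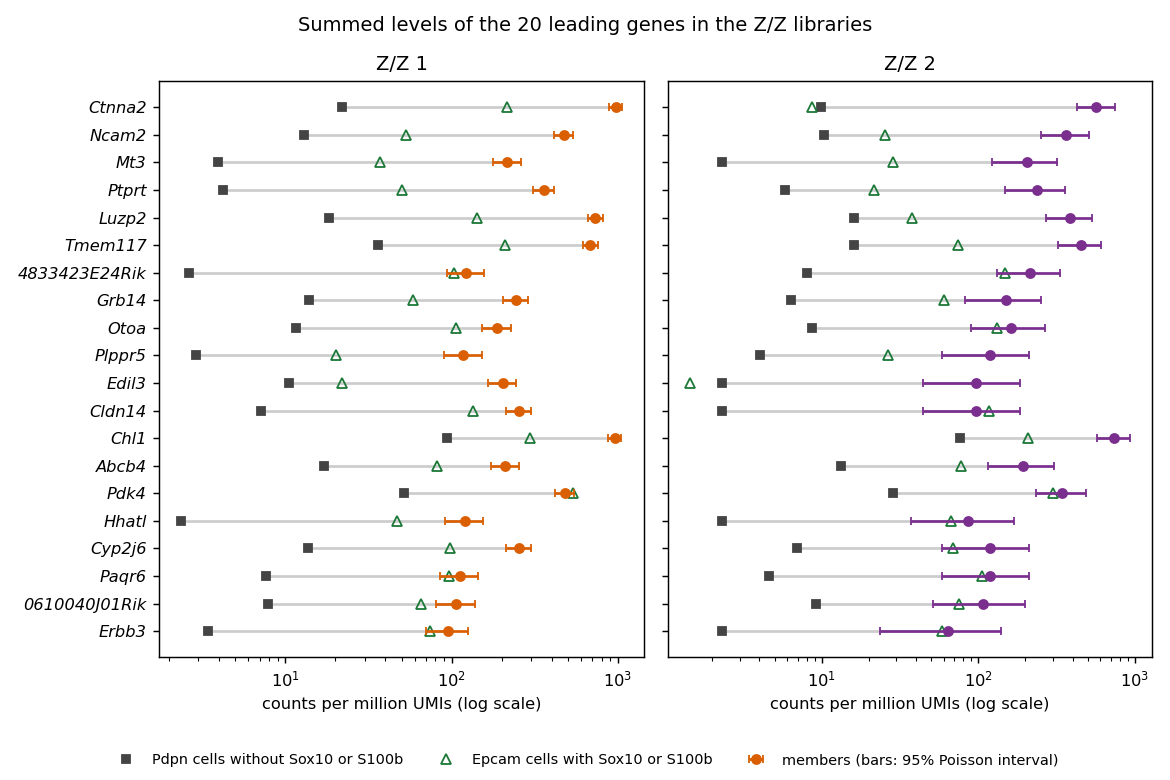
Summed level (x axis, CPM on a log scale) of the 20 leading genes (y axis) in members, in Pdpn cells without Sox10 or S100b and in Epcam cells with Sox10 or S100b, for Z/Z 1 (left) and Z/Z 2 (right). Bars on members are exact Poisson 95% intervals, which cover counting error only. Every leading gene stands above the Pdpn cells in both libraries, as its choice required, and for Ctnna2 the Epcam cells stand at 214 CPM in Z/Z 1 and at 8.61 in Z/Z 2.

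The list was read across libraries, since it had been chosen in both. The 20 genes with the greatest ratio in Z/Z 1 alone were at least 2-fold higher in 19 cases in Z/Z 2, with a median log2 ratio of 3.15, where 9.31% of the 7723 genes they were drawn from were 2-fold higher. The exception was Otog. The 20 genes chosen in Z/Z 2 alone were at least 2-fold higher in 17 cases in Z/Z 1, with a median log2 ratio of 3.34, where 5.66% of 7027 genes were 2-fold higher. E330020D12Rik, Dok6 and Rgs16, named after their values were seen, were the exceptions. The summed profiles of the members of both libraries correlated with Pearson's r = 0.808 across 7047 genes, which are not independent replicates.

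Otog, which encodes the inner ear protein otogelin and is in the aaTEC1 list used here, differed between the libraries. It stood at 611 CPM in Z/Z 1 members (545 to 682, exact Poisson interval), seen in 30 of 57 cells. In Z/Z 2 it had 0 UMIs in 16 members, and 3 UMIs there would be 32.2 CPM. Epcam cells with Sox10 or S100b had Otog in both libraries, at 1093 and 805 CPM. No cause of the missing value was tested.

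The leading genes were not spread evenly over members. A Z/Z 1 member held a median of 12 of the 20 (lowest 0, highest 19), and 51 of 57 members held at least 7, while the other 6 held 0 to 3. In Z/Z 2 the median was 6.5 (0 to 16), with at least 7 genes in 8 cells, 5 in 1 cell and 0 to 3 in 7 cells. All 13 cells with 0 to 3 leading genes had a single Sox10 or S100b UMI. Members with at least 2 such UMIs held 7 or more leading genes in 40 of 40 cells of Z/Z 1 and in 6 of 7 of Z/Z 2. Pdpn cells had a median of 0, and 3.05% and 3.08% of them, or 17 and 8 cells, held 7 or more. Among Epcam cells without Sox10 or S100b, 59 (5.84%) in Z/Z 1 and 21 (3.13%) in Z/Z 2 did. Cells outside the rule thus also held these genes. After thinning to 2000 UMIs the medians of members were 7 and 3.5, and that of Pdpn cells stayed at 0. The cells were not chosen by these genes, but the genes were chosen on these cells.

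**Figure D3:**
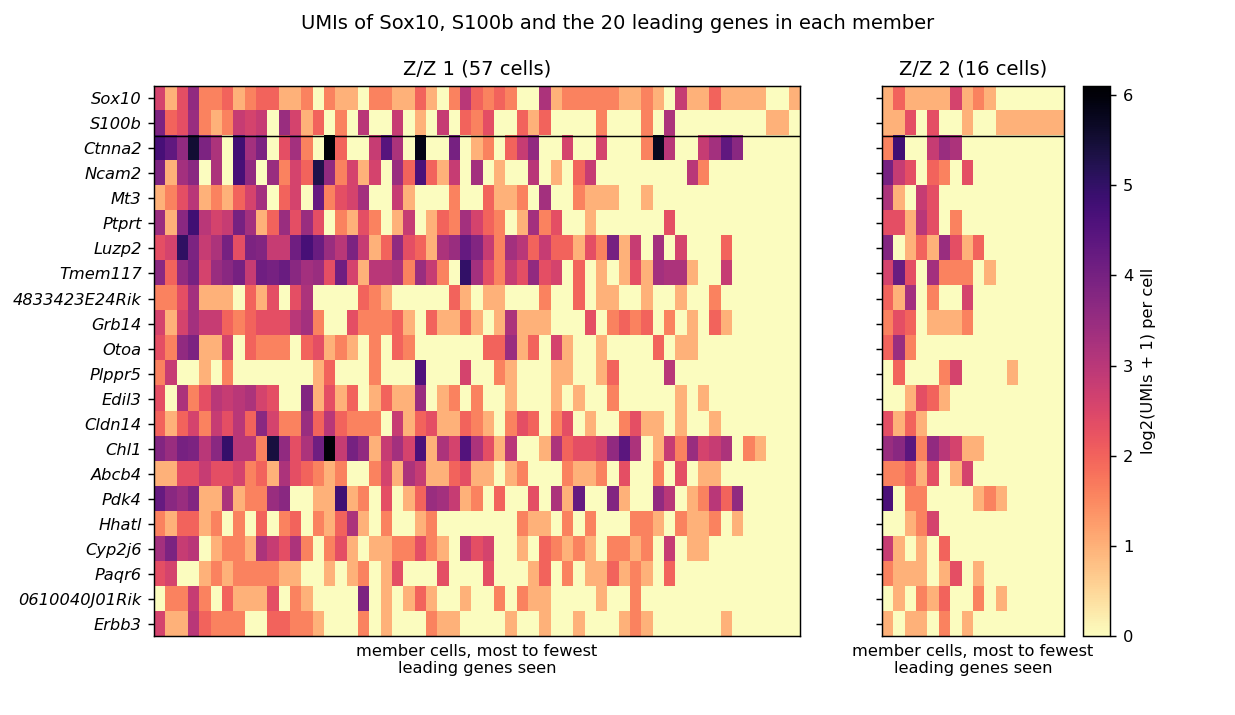
UMIs, as log2(UMIs + 1), of Sox10, S100b (top rows) and the 20 leading genes (rows below the line) in each of the 57 members of Z/Z 1 and the 16 of Z/Z 2 (columns), ordered from most to fewest leading genes seen. Pale cells hold 0 UMIs. The 6 rightmost columns of Z/Z 1 and the 7 rightmost of Z/Z 2 hold 0 to 3 leading genes.

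In Z/Z 2 the leading genes were found mostly in members with Sox10. There the 6 members with S100b alone held 0 to 2 leading genes, and each had a single S100b UMI. The 5 with Sox10 alone held 2 to 13 and the 5 with both held 8 to 16. In Z/Z 1 the 8 members with S100b alone held 0 to 15, with at least 7 in 6 of them, and the 22 with both held 10 to 19. Members with both were also deeper, with a median of 9772 UMIs against 6761 for S100b alone in Z/Z 1. In Z/Z 2 the medians were 6868 UMIs for both, 6458 for Sox10 alone and 4628.5 for S100b alone. The gene seen, its number of UMIs and depth were not separated.

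**Figure D4:**
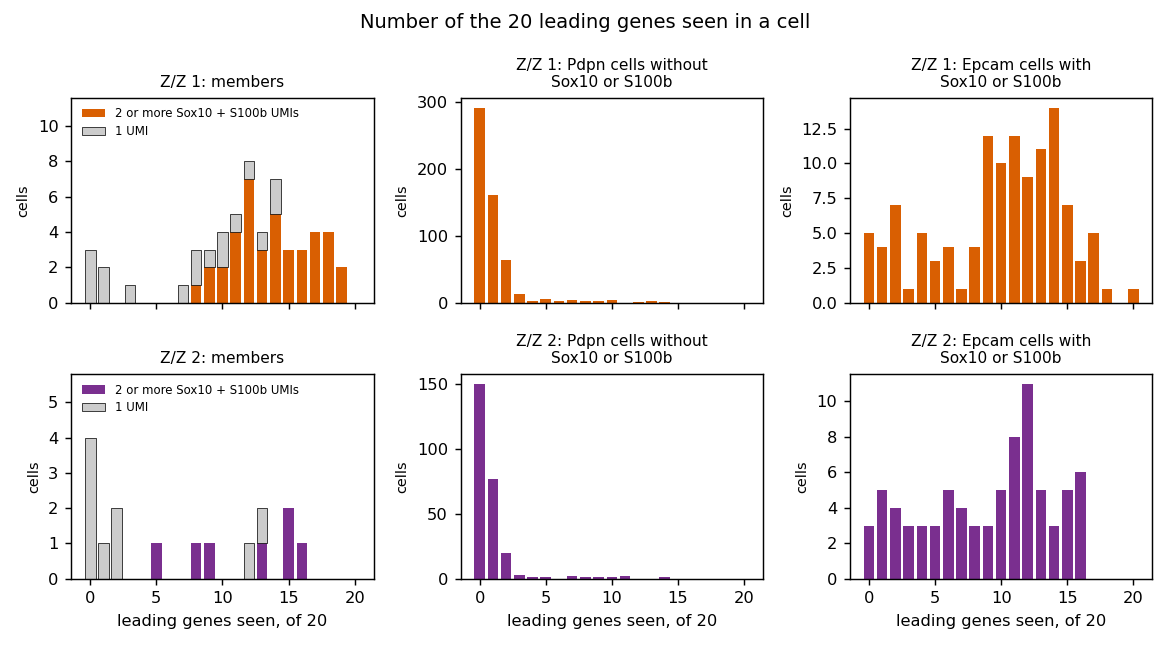
Number of cells (y axis) by the number of the 20 leading genes seen in the cell (x axis) for members, Pdpn cells and Epcam cells with Sox10 or S100b, with Z/Z 1 on top and Z/Z 2 below. Gray bars in the member panels are cells with a single Sox10 or S100b UMI. Members fall at 7 to 19 genes in 51 of 57 cells of Z/Z 1 and at 8 to 16 in 8 of 16 of Z/Z 2, with the rest at 0 to 5.

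Few glial genes beyond Sox10 and S100b were frequent in members. Of 11 other glial identity genes, 4 were seen often enough to be compared, 1 was at least 2-fold higher (Erbb3) and 1 lower (Ngfr, the low-affinity neurotrophin receptor, 3.87 and 0 CPM against 26.3 and 31.2). In members of Z/Z 2, 3 UMIs would be 32.2 CPM, above the 31.2 of Pdpn cells, so the 0 there cannot show Ngfr lower. Gfap, the glial filament protein, had 3 UMIs in 1 cell. Cdh19, Foxd3, Sox2 and Sostdc1 had none. The summed level of the 11 genes was 226 CPM in Z/Z 1 members and 107 in Z/Z 2, against 104 and 107 in Pdpn cells. Ptprz1, a receptor phosphatase, stood at 85.1 and 32.2 CPM and was higher still in Epcam cells without Sox10 or S100b (180 and 177).

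Of 9 myelin genes, Mag, Ncmap, Cldn19 and Drp2 were at 0, and only Mal, a membrane raft protein of myelin and of epithelia, was at least 2-fold higher (81.2 and 21.5 CPM against 0.788 and 1.73). In members of Z/Z 2, 3 UMIs would be 32.2 CPM, so the Mal level there rests on fewer than 3 UMIs. Among 7 genes of repair Schwann cells, Shh, Gdnf, Olig1, Artn and Bdnf were at 0, and Runx2, an osteogenic transcription factor, was 2.78- and 2.38-fold higher. Jun stood at 4868 and 4231 CPM, 1.97- and 1.62-fold above Pdpn cells. The melanocyte genes Dct, Tyr, Tyrp1 and Mlana were at 0, as were the fat cell genes Adipoq, Plin1, Cidec and Lep. Of these lists 1 melanocyte and 2 adipocyte genes were frequent enough to be compared, and none was 2-fold different in both libraries. No lymphatic endothelial gene was.

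Thymic epithelial transcription factors were present. Pax9, which patterns the pharyngeal pouch from which the thymus grows, was seen in 50 of 57 and 10 of 16 members, at 458 and 322 CPM, 1.80- and 1.51-fold above Pdpn cells. Eya1, another pouch regulator, stood at 460 and 204 CPM and Pax1 at 188 and 118 CPM, levels within 1.42-fold of Pdpn cells. In Pdgfra cells Pax9 stood at 4.93 and 3.84 CPM, Eya1 at 17.7 and 11.1, and Pax1 at 7.76 and 4.04. All 3 genes were thus higher in members and in Pdpn cells than in the fibroblast gate. Foxn1 itself had 0 UMIs in all members, and 3 UMIs would be 5.80 and 32.2 CPM.

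Other epithelial genes were low. Krt8, a keratin of simple epithelia, stood at 65.7 and 140 CPM in members against 3204 and 5153 in Epcam cells with Sox10 or S100b. Krt5 and Krt14, keratins of basal cells, had 2 and 1 UMIs in Z/Z 1 and none in Z/Z 2. Cdh1, the epithelial cadherin, was seen in 15 and 2 members. No gene of the epithelial identity list was at least 2-fold higher or lower than in Pdpn cells, with 7 compared. The claudin list gave no gene frequent enough to compare, although Cldn14, which it did not hold, was a leading gene. Medullary genes were rare, with Fezf2 at 0 and Aire, the autoimmune regulator, at 2 UMIs.

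Antigen presentation genes were seen in most members. Cd74, the MHC class II invariant chain, was seen in 44 of 57 and 14 of 16 members at 739 and 945 CPM, near the 832 and 1161 of Pdpn cells and below the 2449 and 3755 of Epcam cells with Sox10 or S100b. In Pdgfra cells it stood at 61.6 and 65.8 CPM. H2-Ab1, H2-Aa and H2-Eb1 stood between 274 and 505 CPM. None of the 6 class II genes compared was 2-fold different from Pdpn cells. Barcodes with at most 100 UMIs held Cd74 at 1733 and 3015 CPM, so free RNA carries this gene, and its part in these values was not tested.

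Of the aaTEC2 list, Ndrg2, a gene of the N-myc downstream-regulated family, was higher and Nos1, the neuronal nitric oxide synthase, lower. Ndrg2 was seen in 57 of 57 and 11 of 16 members at 1630 and 1042 CPM, against 433 and 284. Nos1 stood at 58.0 and 43.0 CPM against 356 and 388. The comparison cells included many with Nos1, 334 of 558 in Z/Z 1 and 150 of 260 in Z/Z 2. Vim, the mesenchymal intermediate filament, and Fstl1, a secreted follistatin-like protein, had ratios between 0.847 and 1.06.

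Genes linked to loss of epithelial character were shared with Pdpn cells. Zeb2 and Zeb1, repressors of Cdh1, stood at 947 and 956 CPM and at 723 and 612 CPM in members, against 151 and 95.6 for Zeb2, and 146 and 92.3 for Zeb1, in Epcam cells with Sox10 or S100b. In Pdpn cells Zeb2 stood at 1041 and 1055 CPM. Of 6 such genes compared with Pdpn cells, none was 2-fold higher and Cdh11, a mesenchymal cadherin, was lower. Sox5, a SOX factor without an activation domain, was 2.28- and 2.06-fold higher, and Sox6 2.33- and 1.78-fold. S100a1 and S100a13, relatives of S100b, were 2.90- to 3.36-fold higher, 2 of 7 S100 genes compared.

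**Figure D5:**
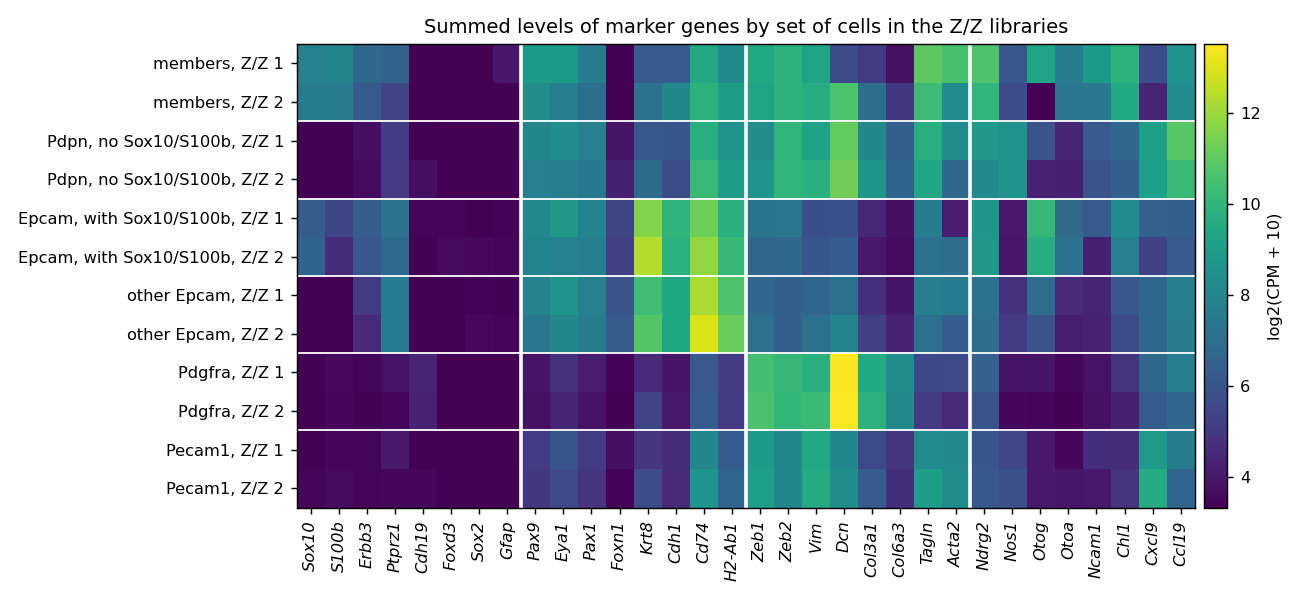
Summed level, log2(CPM + 10) as color, of 32 marker genes (columns, in blocks of 8 for glial, epithelial, mesenchymal and other genes) in 6 sets of cells from each Z/Z library (rows). Members lack Cdh19, Foxd3 and Sox2 but hold Pax9, Eya1, Zeb1 and Zeb2, and the Krt8 of the Epcam rows is low in them.

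The 10 genes with the lowest ratio to Pdpn cells were Cxcl9, Olfm2, Kcnt2, Sdk1, Kcnd3, Flrt2, Ptgs2, Col14a1, Clec3b and Tmeff2. Cxcl9, an interferon-induced chemokine, stood at 42.5 and 10.7 CPM against 540 and 529. Kcnt2 and Kcnd3, potassium channel genes, stood at 15.5 and 19.3 CPM in Z/Z 1, with 1 UMI each in Z/Z 2. Ptgs2, the inducible cyclooxygenase, had 1 UMI in all members. These genes were thus low in members beside Pdpn cells of both libraries, as their choice required.

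Of 4 fibroblast genes compared, 2 were lower (Col1a1 and Col3a1, fibrillar collagens), and of 7 collagen IV and VI genes 2 were lower (Col6a2 and Col6a3). The Pdpn cells were a mixed set, in which 7 fibroblast genes summed to 2767 and 3621 CPM. In those with Nos1 the sum was 859 and 1092 CPM, and in members 106 and 1890. The part of this mix in the lower genes, here and above, was not tested. The growth factors Kitl, the ligand of Kit, and Igf1 were lower (2 of 7), as was the chemokine Ccl19 (360 and 322 CPM against 1894 and 1164), 1 of 4 thymopoietic genes compared. Dcn, a small proteoglycan of fibroblasts, differed between the libraries. It stood at 38.7 CPM in Z/Z 1 but at 1589 in Z/Z 2, where 3 cells with 69, 56 and 13 UMIs held most of it, and 145 of its 148 UMIs lay in the 7 members with 0 to 3 leading genes. Lpl and Lama2 likewise stood at 1.93 and 5.80 CPM in Z/Z 1 and at 107 and 204 in Z/Z 2.

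The levels of Acta2 and Myh11 rested on few cells. Acta2, smooth muscle actin, stood at 1514 and 301 CPM, but in Z/Z 1 a single cell held 610 and a second 144 of its 783 UMIs, and without the 3 highest cells of each library it stood at 46.2 and 24.8 CPM. Myh11, smooth muscle myosin, likewise stood at 617 CPM in Z/Z 1 with its 3 highest cells and at 8.77 without them. Tagln, an actin-binding protein, was seen in 44 and 10 members at 1989 and 1278 CPM. The mural and myoepithelial lists had Acta2 as their 1 higher gene each, of 7 and 2 compared.

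Of 8 immediate early and heat shock genes, Fos alone was at least 2-fold higher (6148 and 4553 CPM against 2352 and 2217), and dissociation was not measured apart from it. Of the neuronal adhesion list, 3 of 4 genes compared were higher, Ncam1, Ncam2 and Chl1, of which the last 2 are leading genes. The otic list had 1 gene compared, Gjb2 (connexin 26), which was 2.42- and 2.98-fold higher on 9 and 2 UMIs, and had Tecta, Tectb, Sox2, Gjb6 and Oc90 at 0. The aaTEC1 list had Kif19a, a kinesin, higher at 63.8 and 53.7 CPM, and Plet1 at 3 and 1 UMIs. Of 9 laminin and integrin genes compared, none was 2-fold different in both libraries. Endothelial, mesothelial, parathyroid, immune, cartilage and cell cycle lists had no gene 2-fold different in both, with at most 1 gene each frequent enough to compare, and Mki67 and Top2a had 1 UMI each.

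Epcam cells with a Sox10 or S100b UMI and none of the other lineage genes, 119 in Z/Z 1 and 79 in Z/Z 2, shared many leading genes. Ctnna2 was an exception in Z/Z 2, where it stood no higher in these Epcam cells than in Pdpn cells. The Epcam cells held a median of 11 and 10 of the 20, at median depths of 15992 and 18495 UMIs. After thinning to 2000 UMIs they held 3 and 3, against 7 and 3.5 in members. Luzp2 stood at 142 and 37.8 CPM in them, below members in both libraries, while Pdk4 and Paqr6 came near the level of members. Of 10149 genes compared, members were at least 2-fold higher in 335 (3.30%) and lower in 440 (4.34%). Across 7047 genes, the summed profile of members had r = 0.849 with these cells and 0.830 with Pdpn cells in Z/Z 1, and 0.713 and 0.771 in Z/Z 2. The order of likeness thus differed between the libraries, at unequal depths, with 517260 UMIs summed over members of Z/Z 1 and 93128 over those of Z/Z 2.

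In WT, Epcam cells with Sox10 or S100b numbered 13 and 3, and held a median of 4 leading genes in both libraries, at 23203 and 21628 UMIs per cell. Luzp2 stood at 62.4 and 58.3 CPM in them, while Hhatl was at 0 in both. Of the 13 in WT 1, 3 held 7 or more leading genes. No WT cell in the Pdpn gate held more than 2 leading genes. These WT values rest on so few cells that they are given without a comparison. Among Epcam cells without Sox10 or S100b, 10 of 330 in WT 1 and 2 of 66 in WT 2 held 7 or more, with highest counts of 13 and 10. This was 3.03% in each, against 5.84% in Z/Z 1 and 3.13% in Z/Z 2, and the WT cells were the deeper. In the Pdpn gate without Sox10 or S100b, 7 fibroblast genes summed to 10641 (WT 1) and 8568 CPM (WT 2), against 2767 (Z/Z 1) and 3621 (Z/Z 2). There 12 epithelial identity genes summed to 279 and 556 CPM in WT, against 1110 and 1018 in Z/Z. Nos1 was seen in 6 of 67 and 0 of 8 of these WT cells. The part of this mix in the WT gate shares of 0 was not tested.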

How the data were processed

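The authors aligned the reads with Cell Ranger (7.0.1 in the file headers, 7.01 in the submitters' processing notes) to mm10 and deposited raw UMI counts per gene and barcode, for called barcodes and for all barcodes. The labels give a v2 kit and a passage of the study's methods a v3 chip, and which applies was not resolved. No other normalization had been applied to the deposited counts. Library totals over called barcodes ranged from 8468086 to 50705511 UMIs, so a gene at 0 in the 16 members of Z/Z 2 may stand below 32.2 CPM.

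Cells with more than 1000 genes and under 20% mitochondrial UMIs were kept. No doublet caller was run, and the top 3.9% of cells by UMIs were left out as an alternative. UMIs were summed by set of cells and library with Python 3.11.15, scipy 1.17.1 and pandas 2.3.3, scaled to counts per 1000000 UMIs (CPM), and compared with a pseudocount of 10 CPM. A gene was compared if it had a UMI in at least 10% of the cells of members, or of the comparison cells, in both Z/Z libraries. As the study had done, genes of ribosomal proteins and haemoglobins were dropped. The levels are not scaled by gene length and are compared for 1 gene at a time. An edgeR fit of Z/Z against WT had been planned over libraries with at least 10 members and could not be made, since no WT library held a member. The calling of genes was tested on simulated counts drawn from summed profiles, without spread between cells. That test therefore does not cover levels that rest on few cells.

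The genes named were those of the rule, up to 4 genes with the highest level of each of 31 lists, the 20 leading genes, the 10 lowest and list genes at 0 or past 2-fold. Some listed items are not reported here. The members and the lists were chosen with earlier results of these data known. Epcam cells with Sox10 or S100b were added as a comparison after seeing the data. Promoter windows came from RefSeq and positions from GENCODE. Alternatives were thinning to 2000 UMIs, other filters, other thresholds of the rule, leaving out shared barcodes and each library in turn, and pairing by replicate number.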

Additional observations from a re-analysis of the deposited data

How the results depend on the processing

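The Z/Z minus WT difference in the share of members ran from 0.415 to 1.09 percentage points under the alternatives with all libraries in. No alternative could bring its exact permutation p under 0.333. As WT held 0 members, alternatives that only left out or regrouped cells or libraries could not turn the difference negative. Only thinning, a lower gene threshold, no Pdpn condition and all called barcodes could have added WT members, and of these thinning alone did. Leaving out each library in turn gave 0.442 to 1.23 percentage points. After thinning to 2000 UMIs, WT 2 had a share of 0.239%, since cells can lose their lineage UMIs, against 0.368% in Z/Z 2 and 0.701% in Z/Z 1. Z/Z and WT libraries share the numbers 1 and 2 in the labels, and nothing ties a number to a shared batch. With the replicate number as a block, the mean of the within-number differences was 0.836 percentage points (exact permutation p = 0.5, the smallest that 2 pairs allow). The number of members was 46 after thinning and 47 with at least 2 Sox10 or S100b UMIs, where the Z/Z 2 share was 0.193%, under the limit of 0.198% that 0 cells allow in WT 1, and 16 to 73 with 1 library left out. With all called barcodes it was 74.

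Against Pdpn cells, requiring at least 2 Sox10 or S100b UMIs gave 332 genes higher, of which 204 were among the 224. It gave 379 lower, of which 165 were among the 182. Thinning to 2000 UMIs left 3249 genes to compare. Of these, 165 were higher, with 113 among the 224, and 145 lower, with 84 among the 182. One Z/Z library alone gave 518 to 1045 genes higher and 489 to 889 lower, by construction, as both libraries were otherwise required. The 30 leading and lowest genes were chosen for large ratios in both libraries, so leaving out 1 library could not change their direction. None changed direction under the rest of the 6 alternatives, which their large ratios made unlikely. The sizes did change. After thinning, the mean log2 ratio of Clec3b went from -2.80 to -1.93 and that of Cxcl9 from -4.04 to -5.34. The Z/Z against WT gene fit and its alternatives (other normalization, DESeq2, filters, thinning, pairing, left-out libraries) were not run, since WT held 0 members. Z/Z 2 rests on 16 members, and the values of single genes there rest on few UMIs.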
